A study of Homo sapiens with 8 samples.

Results

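The E2F transcription factors and the RB proteins were followed in U87MG cells, an established human glioblastoma line, before and after enzalutamide. The 10 genes were chosen by symbol from the 23368 genes in each count file: the activators E2F1, E2F2 and E2F3, the repressors E2F4 and E2F5, the atypical repressors E2F7 and E2F8, and the pocket proteins RB1, RBL1 (p107) and RBL2 (p130). All 10 symbols were found and all 10 passed the filter on low counts. The groups were untreated U87MG cells, called control here, and U87MG cells exposed to enzalutamide for 4 h, 24 h or 48 h, with 2 RNA-seq libraries in each of the 4 groups. Enzalutamide blocks the androgen receptor, and the design asked how genes of this line respond to it. No vehicle is named for the controls and no time is given for them, and the extraction protocol in the labels speaks of a harvest after differentiation, a step found in no other protocol.

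E2F factors bind DNA together with a DP partner and switch the genes of the G1/S transition and of DNA replication. RB1 binds mainly the activator E2Fs and silences them until cyclin-dependent kinases phosphorylate it, while RBL1 and RBL2 work mainly with E2F4 and E2F5, in quiescent cells within the DREAM complex. E2F7 and E2F8 bind DNA without a DP partner and repress E2F target genes late in S phase. Loss of control over this RB pathway is among the best known lesions of glioblastoma.

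Total counts ran from 24620833 in 4 h replicate 1 to 37162565 in 24 h replicate 1. Levels are CPM, counts relative to the library total after scaling by TMM factors. The log2 levels of the 2 libraries of a group correlated at 0.9918 to 0.9951 across genes. Both 48 h libraries stood apart from the others, with 16913 and 17009 genes detected against 17610 to 17986, 7.11 and 6.71% of counts in the top 10 genes against 4.92 to 5.78%, and TMM factors of 0.8697 and 0.8993 against 1.016 to 1.076. All 6 markers of a mesenchymal glioma line were detected in every library, VIM at 5610 to 13600, CD44 at 1880 to 2950, TNC at 1830 to 2620, CAV1 at 354 to 732, CHI3L1 at 88.8 to 209 and NES at 10.9 to 43.3 CPM. The glial genes GFAP, S100B and SOX2 stayed under 1 CPM in all 8 libraries, and OLIG2 reached 2.72 CPM. The immune genes AIF1 and CD3E had no count and PTPRC and CD14 were at most 0.2 CPM, while CD68, a lysosomal gene that many cell types use, was at 566 to 1050 CPM. The summed level of the 6 line markers was 12700 to 13000 CPM in the controls and 18300 to 19400 CPM at 48 h, VIM making up most of it, whereas CAV1 was at 732 and 728 CPM in the controls and 362 and 354 at 48 h, and NES at 25.2 and 27.1 and then 10.9 and 13.2. That of the 4 endothelial genes was 17.3 to 18.1 CPM in the controls and 4.02 to 5.16 CPM at 48 h, nearly all of it KDR, and that of the 4 neuron genes went from 41.8 to 43.0 CPM to 23.1 to 23.7 CPM. The part of these shifts in the results was not tested. Whether both libraries of one group were grown apart is not stated in the labels, so p-values measure the spread between libraries, which may be technical.

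Promoters are shown because E2F genes are themselves known E2F targets. E2F2, RBL1, E2F3 and E2F1 had the largest ratios of highest to lowest group mean among members with a usable window. E2F4 and E2F7 were added as members without a match, and RBL2, also without one, is not shown. E2F8, with a ratio of 17.6, had no window. Whether a site goes with a change in level was not tested. Each line gives the 150 bases before a RefSeq transcript start on GRCh38.p14, 5′ to 3′ on the gene's strand, with matches to an E2F site in capitals. A match was any of the words TTTCCCGC, TTTCGCGC, TTTGCCGC and TTTGGCGC on either strand. E2F4, nearly flat across the groups, and E2F7, which rose without a match in its window, have no capitals.
E2F1, chr20:33686386-33686535, minus strand: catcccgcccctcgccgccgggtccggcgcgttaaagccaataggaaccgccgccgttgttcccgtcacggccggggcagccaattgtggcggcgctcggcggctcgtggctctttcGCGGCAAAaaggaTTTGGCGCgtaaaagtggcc
E2F2, chr1:23531234-23531383, minus strand: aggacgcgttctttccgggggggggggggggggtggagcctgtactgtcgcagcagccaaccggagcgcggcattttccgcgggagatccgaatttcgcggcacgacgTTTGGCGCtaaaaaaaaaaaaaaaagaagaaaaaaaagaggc
E2F3, chr6:20401729-20401878, plus strand: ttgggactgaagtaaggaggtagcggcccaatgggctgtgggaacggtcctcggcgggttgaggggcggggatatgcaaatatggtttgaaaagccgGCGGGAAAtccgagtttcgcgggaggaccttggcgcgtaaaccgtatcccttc
RBL1, chr20:37095998-37096147, minus strand: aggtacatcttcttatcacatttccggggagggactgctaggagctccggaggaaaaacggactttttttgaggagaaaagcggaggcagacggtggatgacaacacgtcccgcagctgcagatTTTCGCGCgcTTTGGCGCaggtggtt
E2F4, chr16:67192005-67192154, plus strand: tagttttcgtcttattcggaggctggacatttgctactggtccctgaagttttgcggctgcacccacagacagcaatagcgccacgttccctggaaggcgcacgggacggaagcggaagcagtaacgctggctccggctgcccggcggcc
E2F7, chr12:77065570-77065719, minus strand: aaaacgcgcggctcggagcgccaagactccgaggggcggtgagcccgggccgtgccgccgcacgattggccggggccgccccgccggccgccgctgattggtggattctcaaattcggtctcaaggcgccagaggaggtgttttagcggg

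RefSeq windows from 250 bases before to 50 after a start were at hand for 8 of the 10 members; E2F5 and E2F8 had none, and that of RB1 lay inside the gene, far from the start of its full-length transcript, and was not used. An E2F site stood in 3.31% of all 35116 windows and in 4.59% of those of tested genes, and 0.145% of all windows held more than 1. E2F1 had a match on the minus strand at bases -33 to -26 and one on the plus strand at -20 to -13, counted from the start. RBL1 also had 2 matches, at -26 to -19 and -16 to -9, both on the plus strand. E2F2 had 1 at -42 to -35, and the first E2F3 start had 1 on the minus strand at -53 to -46, while the second E2F3 start had none. No match lay in the windows of E2F4, E2F7 or RBL2. The CHR element, a motif bound by the DREAM complex at genes of G2 and mitosis, was searched as TTTGAA and TTCGAA on both strands. It stood in 16.4% of all windows and in 12.2% of those of tested genes. Among the members it was found in the first E2F3 window at -65 to -60 and in the first RBL2 window at 25 to 30. CCAAT boxes stood in 34.6% of windows; E2F1 held 3, and E2F3 and E2F7 held 4 each. A match describes letters only and is not evidence of binding.

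**Figure D1:**
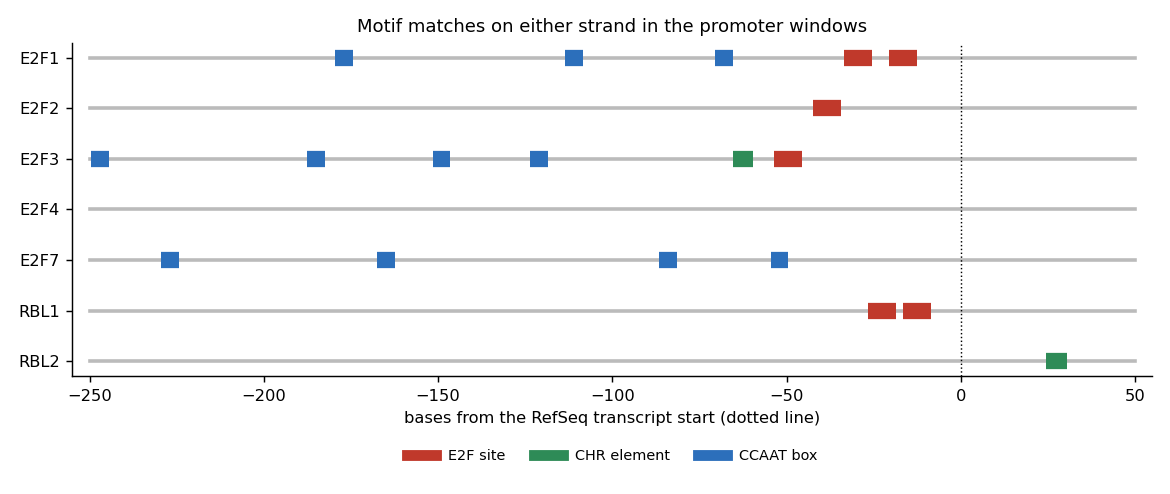
Positions of E2F sites (red), CHR elements (green) and CCAAT boxes (blue) in the promoter windows of 7 member genes, first RefSeq start each, on an axis of bases from the transcript start. E2F1 and RBL1 carry 2 E2F sites each, E2F2 and E2F3 carry 1, and E2F4, E2F7 and RBL2 carry none in these windows.

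The 10 genes followed a few distinct courses. E2F2, E2F8 and RBL1 fell at 4 h, rose at 24 h and fell far below control at 48 h. E2F1 also fell at 4 h and rose at 24 h, but stayed above control at 48 h, and E2F7 and RB1 rose at 24 h and 48 h. E2F3 fell and E2F5 rose at 48 h, and E2F4 passed the test in no comparison with the TMM scaling used here. These calls come from edgeR's quasi-likelihood test with a Benjamini-Hochberg adjusted p under 0.05 over 14448 genes, levels are CPM scaled by TMM factors, and changes are on the log2 scale with a standard error (SE). In these bulk libraries, fewer cells that express a gene and less RNA per cell cannot be told apart.

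At 4 h 4 of the 10 members were called, none higher and 4 lower, where 28.6% of all genes were called (15% higher and 13.6% lower). At 24 h 6 were called, all higher, against 22.3% of all genes (12.9% higher and 9.39% lower). At 48 h 9 were called, 4 higher and 5 lower, against 66.9% of all genes (33.3% higher and 33.5% lower), so being called at 48 h was common across the genome. The libraries of control and treated groups did not overlap for 7 members at 4 h, 9 at 24 h and 9 at 48 h, beside 68.6, 66.2 and 82% of all genes, so with 2 libraries a group a gap alone says little. The members' median change was -0.09 at 4 h, 0.49 at 24 h and -0.09 at 48 h, beside -0.00, 0.01 and -0.02 for all genes. Scaling by library totals alone put the all-gene median at 48 h at -0.30, and called 2 members higher and 6 lower there. With it 29% of the genes called at 48 h were higher, against 49.8% with TMM, so changes at 48 h are relative to the other genes of the library.

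**Figure D2:**
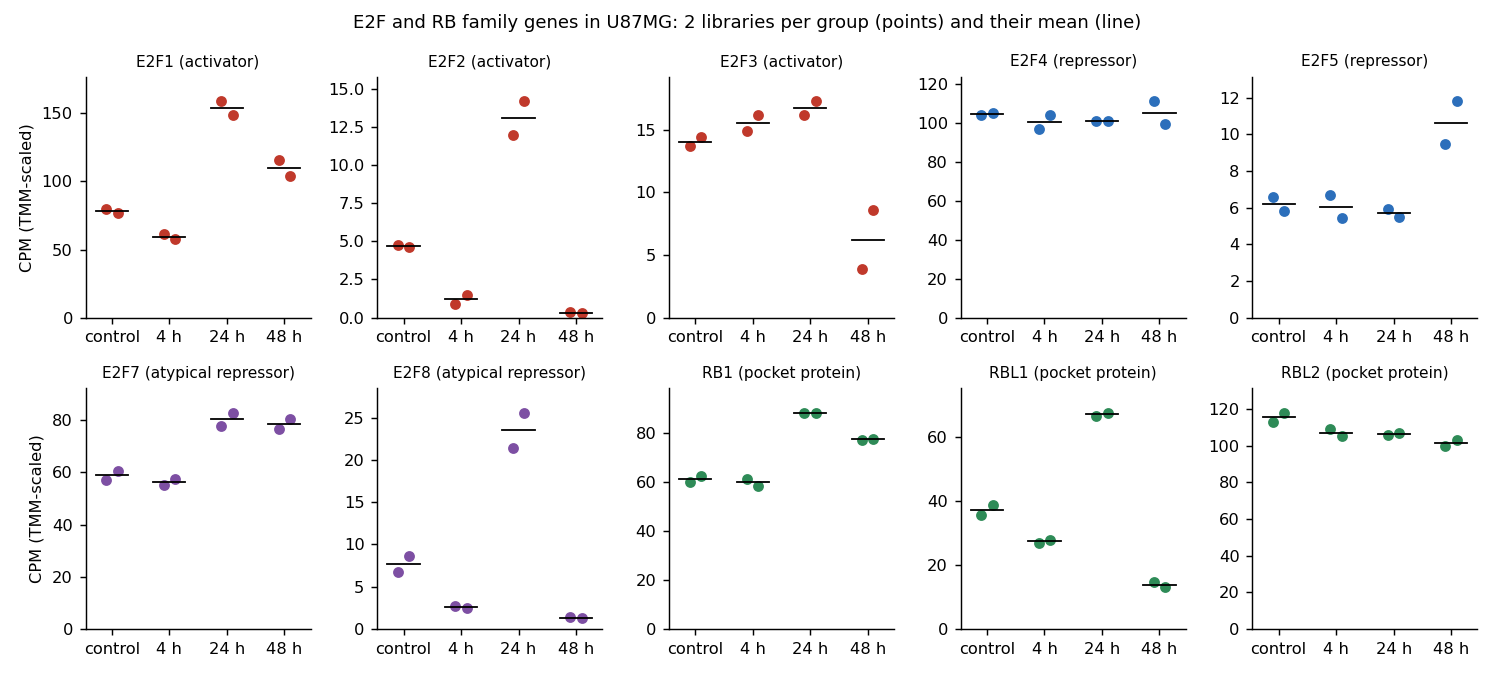
TMM-scaled CPM of each of the 10 genes (one panel each, y axes from 0 on their own scales) in control, 4 h, 24 h and 48 h; points are libraries and lines are means of 2. E2F2, E2F8 and RBL1 peak at 24 h and are lowest at 48 h, E2F1, E2F7 and RB1 stay above control at 48 h, and E2F4 stays between 96.5 and 111 CPM.

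Among the activators, E2F1, which drives S phase genes and is held in check by RB1, was at 79.5 and 76.7 CPM in the controls, 61.7 and 57.4 after 4 h, 159 and 149 after 24 h, and 116 and 104 after 48 h. The 4 groups did not overlap, and their order was 24 h, 48 h, control, 4 h. E2F1 fell by 0.39 (SE 0.08, adjusted p = 0.00299) at 4 h, a fall of 23.8%. It rose by 0.98 (SE 0.07, adjusted p = 9.27e-06) at 24 h, 1.97-fold, and was still 1.41-fold above control at 48 h (log2 change 0.50, SE 0.07, adjusted p = 0.000122). With library totals the 48 h rise was 0.22 (adjusted p = 0.0152). Each step in that order passed the test, with adjusted p = 0.000136 between 24 h and 48 h.

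E2F2, an activator closely related to E2F1, was at 4.79 and 4.66 CPM in the controls, 0.92 and 1.5 after 4 h, 12 and 14.2 after 24 h, and 0.34 and 0.309 after 48 h. Its groups stood apart without overlap, in the order 24 h, control, 4 h, 48 h. The change was -1.92 (SE 0.22, adjusted p = 0.000107) at 4 h, 1.47 (SE 0.17, adjusted p = 0.000158) at 24 h and -3.85 (SE 0.29, adjusted p = 5.2e-07) at 48 h, which is 3.8-fold lower, 2.76-fold higher and 14.4-fold lower. Only 10 and 9 reads stood behind the 48 h levels, so the depth limits how closely that fold is known. Between 24 h and 48 h E2F2 fell 39.7-fold, and the ratio of its highest to its lowest group mean was 40.2, larger than that of 99.7% of the genes tested.

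E2F3, whose gene makes the activator E2F3a and the shorter E2F3b that counts per symbol do not separate, was at 13.7 and 14.4 CPM in the controls, 14.9 and 16.2 after 4 h, 16.2 and 17.3 after 24 h, and 3.91 and 8.56 after 48 h. Both 48 h libraries were under all the others, but they lay further apart than the libraries of any other group, with 115 and 249 reads. E2F3 did not pass the test at 4 h (0.15, adjusted p = 0.67) or 24 h (0.25, adjusted p = 0.458) and fell by 1.17 (SE 0.24, adjusted p = 0.00125) at 48 h, 2.25-fold. The size of that fall rested on 1 library: it was -0.71 without 48 h replicate 1 and -1.83 without 48 h replicate 2. Each of these fits held 1 library at 48 h, and so no spread within that group. Against 24 h the same 2 settings gave -0.97 and -2.09, and against 4 h -0.86 and -1.98.

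Of the repressors, E2F4, the main partner of RBL1 and RBL2 in resting cells, was at 104 and 105 CPM in the controls, 96.5 and 104 after 4 h, 101 and 101 after 24 h, and 111 and 99.1 after 48 h. The largest of its 6 differences was 0.07 and none passed the test. Its highest group mean was 1.05 times its lowest, and only 0.166% of the genes tested had a smaller ratio. At 48 h its change of 0.01 (SE 0.07, adjusted p = 0.907) turned into a fall of -0.27 (adjusted p = 0.00556) when libraries were scaled by their totals, and 48 h against 4 h passed without 48 h replicate 2 (0.16, adjusted p = 0.0347).

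E2F5, the other pocket protein partner of this class, was at 6.57 and 5.81 CPM in the controls, 6.68 and 5.41 after 4 h, 5.91 and 5.49 after 24 h, and 9.46 and 11.8 after 48 h. The first 3 groups overlapped and both 48 h libraries were above them. E2F5 rose by 0.78 (SE 0.16, adjusted p = 0.00108) at 48 h, 1.71-fold (0.50 with library totals, adjusted p = 0.018), and did not pass the test at 4 h (-0.04, adjusted p = 0.874) or 24 h (-0.12, adjusted p = 0.659). It was the only member higher at 48 h than at 24 h (0.89, SE 0.16, adjusted p = 0.000407).

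The atypical repressors took different courses. E2F7 was at 57.1 and 60.7 CPM in the controls, 55.3 and 57.4 after 4 h, 77.8 and 83.0 after 24 h, and 76.8 and 80.4 after 48 h. Control and 4 h overlapped, 24 h and 48 h overlapped, and the 2 later groups were above the 2 others. E2F7 rose by 0.45 (SE 0.07, adjusted p = 0.00111) at 24 h and by 0.42 (SE 0.07, adjusted p = 0.000287) at 48 h, 1.36-fold and 1.33-fold, and the difference between these times was -0.03 (SE 0.07, adjusted p = 0.696). With library totals as the scaling the 48 h rise was 0.14 and did not pass (adjusted p = 0.128), and E2F7 fell by 0.25 from 24 h to 48 h (adjusted p = 0.0128).

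E2F8, which binds DNA alone or with E2F7, was at 6.71 and 8.63 CPM in the controls, 2.72 and 2.50 after 4 h, 21.4 and 25.6 after 24 h, and 1.43 and 1.24 after 48 h. No groups overlapped, and the order was that of E2F2. The changes were -1.56 (SE 0.18, adjusted p = 0.000105), 1.61 (SE 0.15, adjusted p = 3.02e-05) and -2.52 (SE 0.20, adjusted p = 8.68e-07) at 4 h, 24 h and 48 h, or 2.95-fold lower, 3.06-fold higher and 5.74-fold lower. The fall from 24 h to 48 h was 17.5-fold, and 99.1% of the genes tested had a smaller ratio between group means than the 17.6 of E2F8.

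Among the pocket proteins, RB1, the retinoblastoma protein, was at 60.0 and 62.3 CPM in the controls, 61.3 and 58.2 after 4 h, 88.3 and 88.3 after 24 h, and 77.1 and 77.7 after 48 h. Control and 4 h overlapped and the 2 later groups were above them. RB1 rose by 0.53 (SE 0.06, adjusted p = 0.000211) at 24 h and by 0.34 (SE 0.06, adjusted p = 0.000684) at 48 h, 1.44-fold and 1.27-fold. The 48 h rise was 0.06 (adjusted p = 0.416) with library totals as the scaling. The step down from 24 h to 48 h (-0.19, adjusted p = 0.0218) was lost in 5 of the other settings, among them DESeq2 (-0.15, adjusted p = 0.126) and the fits without 24 h replicate 1 (-0.19) or 24 h replicate 2 (-0.18), and was -0.40 (adjusted p = 0.000224) with library totals.

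RBL1, or p107, whose gene is a known E2F target, was at 35.5 and 38.6 CPM in the controls, 26.9 and 27.8 after 4 h, 66.3 and 67.5 after 24 h, and 14.7 and 13.0 after 48 h. The groups did not overlap and stood in the order 24 h, control, 4 h, 48 h, as for E2F2 and E2F8. RBL1 fell by 0.44 (SE 0.08, adjusted p = 0.00299) at 4 h, rose by 0.85 (SE 0.08, adjusted p = 4.21e-05) at 24 h and fell by 1.42 (SE 0.09, adjusted p = 1.46e-07) at 48 h. It dropped 4.84-fold from 24 h to 48 h (adjusted p = 4.84e-09).

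RBL2, or p130, the pocket protein of resting cells, was at 113 and 118 CPM in the controls, 109 and 105 after 4 h, 106 and 107 after 24 h, and 100 and 103 after 48 h. Both control libraries were above all the others, and the 4 h and 24 h groups overlapped. RBL2 fell by 0.19 (SE 0.06, adjusted p = 0.0167) at 48 h, 1.14-fold, and did not pass the test at 4 h (-0.11, adjusted p = 0.2) or 24 h (-0.11, adjusted p = 0.204). Without control replicate 2 the 48 h change was -0.15 and did not pass (adjusted p = 0.119), and with library totals it was -0.47 (adjusted p = 5.91e-05). At 24 h RBL2 passed when the 48 h libraries were left out of the fit (-0.13, adjusted p = 0.0487).

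**Figure D3:**
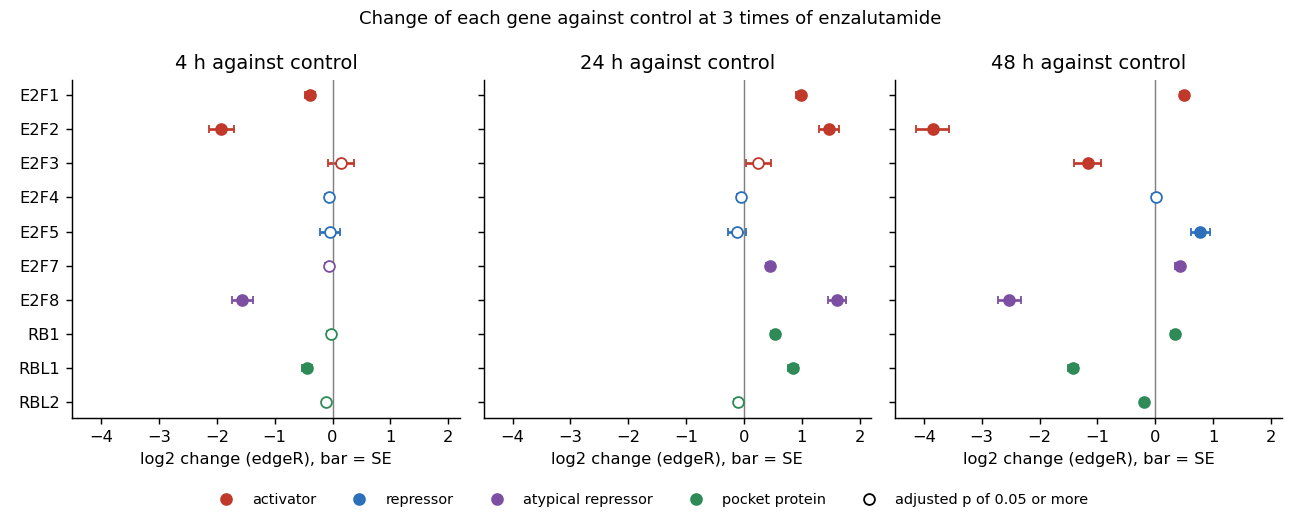
Log2 change against control at 4 h, 24 h and 48 h for each gene, coloured by role, with bars of 1 SE from edgeR; open points have an adjusted p of 0.05 or more. E2F2 and E2F8 swing from -1.92 and -1.56 through 1.47 and 1.61 to -3.85 and -2.52, while E2F4 lies within 0.06 of zero at each time with TMM scaling (with library totals it is at -0.27 at 48 h).

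Activators and repressors did not move as 2 blocks. The mean log2 change over the 3 activators was -0.72 at 4 h, 0.90 at 24 h and -1.51 at 48 h, with single genes from -1.92 to 0.15, 0.25 to 1.47 and -3.85 to 0.50. Over the repressors E2F4 and E2F5 it was -0.05, -0.08 and 0.39, over the atypical repressors -0.81, 1.03 and -1.05, and over the pocket proteins -0.19, 0.42 and -0.42. At 48 h the activators held members called in both directions under either scaling. With TMM so did the atypical repressors and the pocket proteins, and with library totals, where E2F7 and RB1 did not pass, E2F4 was lower and E2F5 higher instead.

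Across the 8 libraries the log2 CPM of E2F2, E2F8 and RBL1 correlated with each other at 0.97 to 0.98, and those of E2F1, E2F7 and RB1 at 0.91 to 0.96. Between these 2 sets the 9 values ran from 0.03 for RBL1 and E2F7 to 0.50 for E2F8 and E2F1. E2F5 ran against RBL1 at -0.84. These are descriptions over 8 libraries that share 4 group means, and the sets cut across roles: each holds an activator, an atypical repressor and a pocket protein.

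Ratios of 2 genes within a library do not depend on the scaling. The log2 ratio of E2F1 to E2F4 counts was -0.39 and -0.46 in the controls, -0.65 and -0.85 after 4 h, 0.65 and 0.57 after 24 h, and 0.06 and 0.07 after 48 h. Against E2F4, E2F1 therefore stood lower at 4 h, highest at 24 h and above control at 48 h, with differences from control of -0.33, 1.03 and 0.49. For E2F2 to E2F4 the differences were -1.93, 1.51 and -3.80, and for E2F8 to E2F4 -1.48, 1.67 and -2.51. E2F7 to E2F4 differed from control by 0.50 at 24 h and 0.41 at 48 h, and E2F3 to E2F4 by -1.28 at 48 h, with an SD of 0.91 between the 48 h libraries.

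The balance of the 2 p107 and p130 genes shifted most at 48 h. The log2 ratio of RBL1 to RBL2 counts was -1.67 and -1.61 in the controls, -2.01 and -1.92 after 4 h, -0.68 and -0.67 after 24 h, and -2.77 and -2.98 after 48 h. The 24 h libraries were the highest and the 48 h libraries the lowest. RBL1 to RB1 differed from control by -0.40, 0.32 and -1.76. These ratios are given as descriptions and were not tested.

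Levels of different genes were compared as CPM per kb of exon. In the controls E2F1 (31.2 ± 0.812, SD, n = 2) and E2F4 (29.2 ± 0.238) led the E2F genes, followed by E2F7 at 9.35, E2F3 at 2.72, E2F8 at 1.85, E2F5 at 1.04 and E2F2 at 0.866. RBL2 led the pocket proteins at 15.8, ahead of RB1 at 9.48 and RBL1 at 6.22. E2F2 and E2F8, which changed most in fold, were thus among the E2F genes with the lowest levels per kb. The order of E2F1 and E2F4 depends on the length used: with the longest transcript in place of all exons E2F4 took 44.9 and 45.2% of the summed E2F level in the controls and E2F1 35.9 and 34.4%.

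By length over all exons, E2F1 made up 41.8 and 40.1% of the summed level of the 7 E2F genes in the controls, 37.8 and 34.8% after 4 h, 54.9 and 52.3% after 24 h, and 50.3 and 48.4% after 48 h. E2F4 went the other way, with 38.1 and 38.5, 41.3 and 43.9, 24.5 and 24.7, and 33.6 and 32.2%. The 3 activators together held 46.4 and 44.9% in the controls, 42.5 and 40.0% after 4 h, 59.5 and 57.5% after 24 h, and 51.1 and 50.4% after 48 h. Their share was thus above control at 48 h although E2F2 and E2F3 had fallen, since E2F1 was nearly all of it.

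The share of E2F2 was 1.15 and 1.12% in the controls and 0.0674 and 0.0659% at 48 h, and that of E2F8 was 2.13 and 2.73% in the controls, 4.46 and 5.42% at 24 h and 0.373 and 0.347% at 48 h. Of the pocket protein level, RBL1 held 19.4 and 20.1% in the controls, 15.7 and 16.6% after 4 h, 28.3 and 28.6% after 24 h, and 8.76 and 7.72% after 48 h. RB1 held 30.3 and 30.0% in the controls and 42.5 and 42.6% at 48 h, and RBL2 held 50.3 and 49.9% in the controls, 36.9% in both 24 h libraries, and 48.7 and 49.6% at 48 h. A rise of RB1 in share thus stood beside the fall of RBL1 at 48 h.

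**Figure D4:**
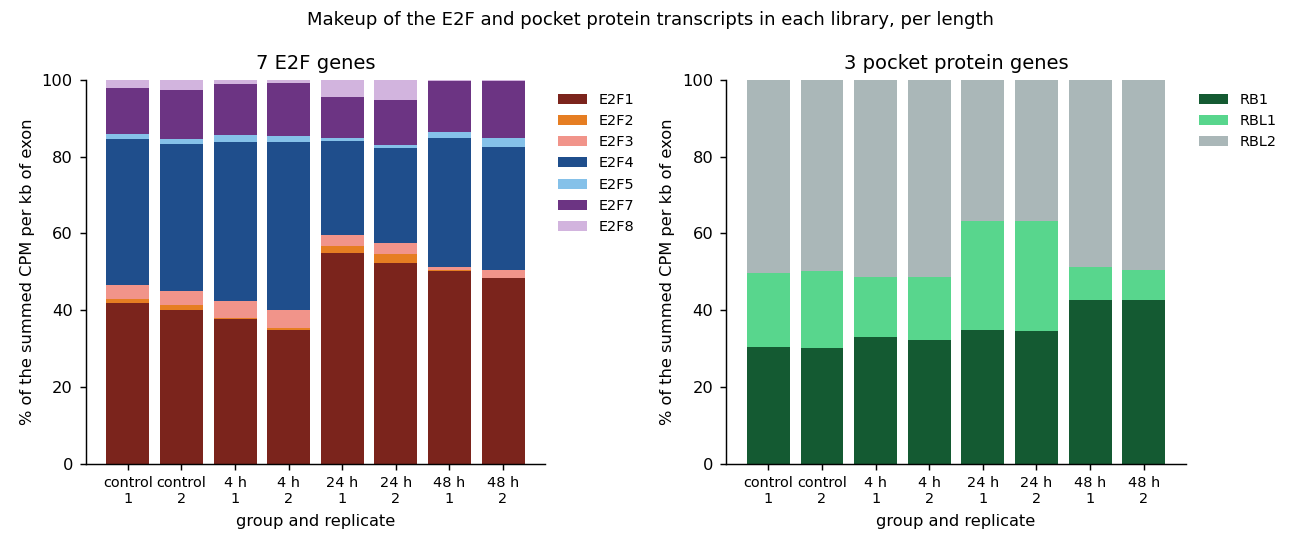
Stacked shares (% of the summed CPM per kb of exon) of the 7 E2F genes (left) and the 3 pocket protein genes (right) in each of the 8 libraries. E2F1 and E2F4 make up most of the E2F level in each library, with E2F1 largest at 24 h, and RBL1 shrinks to 8.76 and 7.72% of the pocket proteins at 48 h.

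Of the rest of the family, E2F6, a repressor that does not bind pocket proteins, was at 13.6 and 15.1 CPM in the controls, 20.7 and 18.9 after 4 h, 13.7 and 13.5 after 24 h, and 9.29 and 9.59 after 48 h. It rose by 0.46 (SE 0.10, adjusted p = 0.00713) at 4 h and fell by 0.60 (SE 0.11, adjusted p = 0.000508) at 48 h. TFDP1, the main DP partner of the E2Fs, was at 141 and 144 CPM in the controls, 129 and 139 after 4 h, 199 and 194 after 24 h, and 73.1 and 65.6 after 48 h. It rose by 0.46 (SE 0.07, adjusted p = 0.000815) at 24 h and fell by 1.04 (SE 0.07, adjusted p = 2.47e-07) at 48 h. TFDP2, the other DP partner, ran from 57.7 to 72.4 CPM and passed the test at no time against control.

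Genes of the pathway were counted in 7 lists, to be read beside the shares of all genes called: 15% higher and 13.6% lower after 4 h, 12.9% and 9.39% after 24 h, and 33.3% and 33.5% after 48 h. The list of E2F partners, DREAM components and related factors held 11 genes, all measured. Besides DP partners and DREAM subunits it held E2F6, MYBL1, MYBL2 and FOXM1. Its counts were 1 higher and 4 lower at 4 h, 7 and 0 after 24 h, and 3 and 5 after 48 h (3 and 7 with library totals). At 4 h the 1 higher was E2F6, and the 4 lower were LIN9, MYBL1, MYBL2 and FOXM1. FOXM1, a factor of the G2 and mitotic program, fell by 1.08 at 4 h and rose by 0.83 at 24 h and 1.22 at 48 h. MYBL2, the MYB protein that joins the MuvB core, fell by 0.83 at 4 h and rose by 1.69 at 24 h and 0.66 at 48 h. MYBL1, its relative, fell by 1.42 at 4 h, rose by 0.89 at 24 h and fell by 1.14 at 48 h. Of the MuvB subunits, LIN54 rose by 0.75 at 24 h and LIN37 by 1.37 at 48 h.

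The list of cyclins and kinases around the RB proteins held 14 genes, of which 13 were measured, CCND2 being the exception. It included the phosphatase gene CDC25A and the CDK-activating kinase genes CCNH, CDK7 and MNAT1, whose products act on CDKs. Of the 13, 1 was higher and 5 lower at 4 h, 8 and 0 after 24 h, and 5 and 6 after 48 h (3 and 8 with library totals). CCND1, cyclin D1, rose by 0.55 at 4 h, from a mean of 1180 to 1720 CPM, and fell by 0.82 to 666 CPM at 48 h. The E-type cyclins, partners of CDK2 at the G1/S transition, rose at 24 h and fell at 48 h, as RBL1 did: CCNE1 rose by 1.06 at 24 h and fell by 0.36 at 48 h, and CCNE2 rose by 0.46 and fell by 3.75, from 14.8 to 1.10 CPM. CDK1 and its partner CCNA2 fell by 0.85 and 0.98 at 4 h and rose by 1.38 and 1.25 at 24 h. Unlike the E-type cyclins they were still above control at 48 h, by 0.92 and 0.56. CCNH, a subunit of the CDK-activating kinase, rose by 1.10 at 48 h.

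Of 7 CDK inhibitors 4 were measured, of which 2 were lower at 4 h, 3 higher and 1 lower at 24 h, and 4 higher at 48 h (3 with library totals). CDKN1A, or p21, rose by 0.63 (SE 0.07) at 24 h and 1.44 (SE 0.07) at 48 h, from a mean of 223 to 605 CPM. CDKN1C, or p57, was the 1 lower at 24 h, by 1.74 (SE 0.57, edgeR adjusted p = 0.0499). That call rested on 7 and 3 reads, against 17 and 16 in the controls. At 48 h CDKN1C rose by 3.36 (SE 0.35), from 0.471 to 4.89 CPM. CDKN2D, or p19, rose by 1.14 at 24 h and 0.99 at 48 h. CDKN1B, or p27, fell by 0.65 at 4 h and rose by 0.25 at 24 h. CDKN2A, CDKN2B and CDKN2C did not pass the filter on low counts: CDKN2B and CDKN2C had no read in any library and CDKN2A at most 1.

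The 13 RB corepressors had 7 lower at 4 h, 6 higher at 24 h, and 4 higher and 4 lower at 48 h. With library totals 1 was higher and 8 were lower at 48 h, and the list median turned from 0.09 to -0.19. The 48 h count with TMM is near the share of all genes called in each direction. HDAC1, a histone deacetylase that RB1 recruits, fell by 1.16 at 48 h, from 96.5 to 43.1 CPM, and SUV39H2, a histone methyltransferase, also by 1.16. SIN3A, a scaffold of deacetylase complexes, fell by 0.60 at 4 h and rose by 0.66 at 48 h. The DNA methyltransferase gene DNMT1 fell by 0.36 at 4 h and rose by 0.57 at 24 h. Of the 11 genes of E2F turnover and checkpoint kinases 7 were lower at 4 h, 7 higher at 24 h, and 5 higher and 5 lower at 48 h (3 and 5 with library totals), beside 66.9% of all genes called at 48 h. SKP2, an F-box protein that marks p27 and E2F1 for degradation, fell by 2.73 at 48 h, from 20.6 to 3.10 CPM, while CDC20, an activator of the anaphase-promoting complex, rose by 1.33.

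Most known E2F targets of replication and nucleotide synthesis fell at 4 h and rose at 24 h, and at 48 h more fell than rose. Of 43 genes, all measured, 33 were lower and none higher at 4 h, 38 were higher and none lower at 24 h, and 12 were higher and 22 lower at 48 h (9 and 25 with library totals). Their median change was -0.58, 0.73 and -0.31. RRM2, a subunit of ribonucleotide reductase, rose by 2.12 at 24 h, from a mean of 86.0 to 373 CPM. UHRF1, which maintains DNA methylation at replication forks, fell by 3.28 at 48 h, from 35 to 3.59 CPM, FEN1, a flap endonuclease, by 1.97, and MCM6, a subunit of the replicative helicase, by 1.71. The helicase genes MCM3 and MCM2 fell by 0.69 and 0.55 at 4 h.

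Genes of G2 and mitosis, many of them targets of the DREAM complex, had a different count at 48 h. All 23 were lower at 4 h and 22 were higher at 24 h, and at 48 h 18 were higher and 2 lower, or 10 and 3 with library totals. Their median change was -1.0, 1.03 and 0.48, the last 0.20 with library totals. PLK1, a mitotic kinase, fell by 1.12 at 4 h and rose by 1.65 at 48 h, to a mean of 212 from 67.6 CPM, and the spindle factor TPX2 rose by 1.40 at 48 h. TOP2A, topoisomerase II alpha, rose by 1.42 at 24 h and 1.24 at 48 h. In the promoter windows an E2F site was found for 20 of the 36 E2F target genes with a window and for 2 of 18 G2/M genes, and a CHR element for 6 of 36 and 13 of 18. Of 9958 tested genes with a window 6.39% held an E2F site and 16.2% a CHR element.

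**Figure D5:**
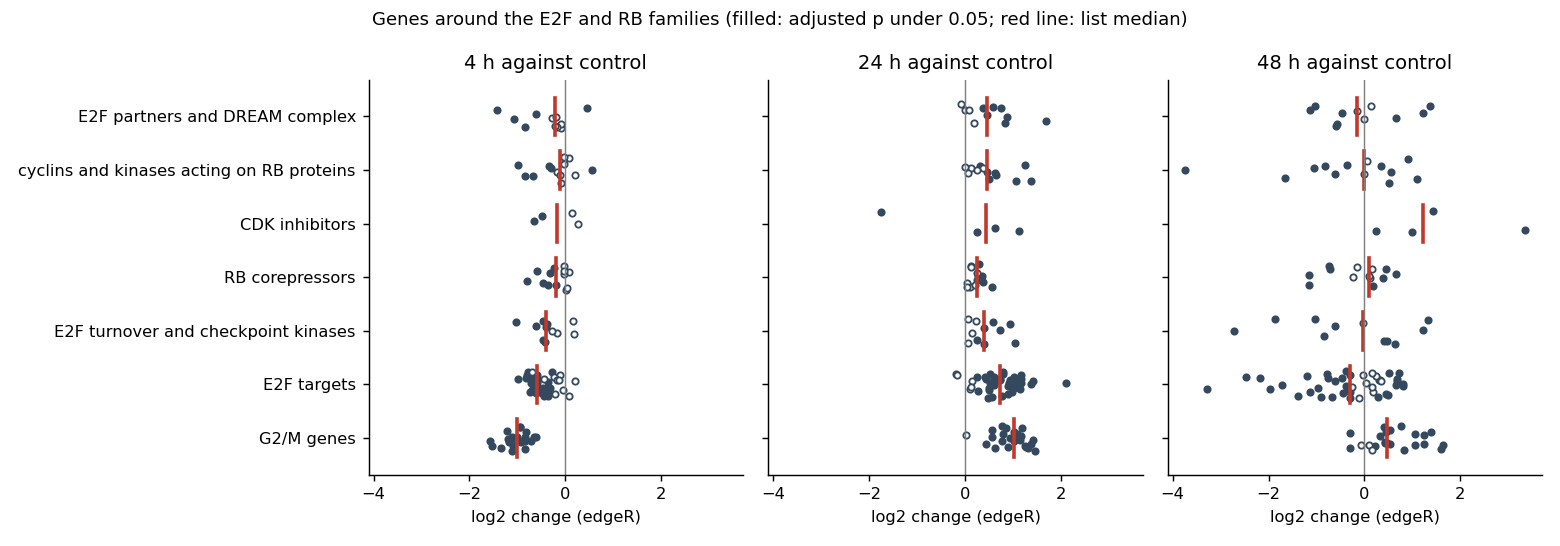
Log2 change against control of each measured gene in 7 lists around the E2F and RB families at 4 h, 24 h and 48 h; filled points have an adjusted p under 0.05 and red lines are list medians. Every list median is below 0 at 4 h and above 0 at 24 h, and at 48 h that of the E2F targets is -0.31 while that of the G2/M genes is 0.48 (at 48 h the RB corepressor median turns from 0.09 to -0.19 with library totals).

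The genes whose course was most like that of each member were picked by Pearson correlation of log2 CPM over the 8 libraries among 7536 or 7537 genes. For E2F1 these were SKA1 (0.9967), a spindle and kinetochore gene, and TYMS (0.9931), thymidylate synthase. For E2F2 they were MCM3 and KLHL22 (both 0.9975), though their changes at 48 h were -1.39 and -0.38, against -3.85 for E2F2. For E2F8 they were ESCO2 (0.9985), a cohesin acetyltransferase of S phase, and C20orf72 (0.9977), and for RBL1 DDX46 (0.9967) and METTL7B (0.9965). PCM1 (0.9907) and CDK5RAP2 (0.989), both centrosome genes, were nearest to E2F7, and LTBP3 (0.9855) and TPM3 (0.9829) to RB1. E2F3 was nearest to PPM1F (0.9978) and ZC3H12C (0.997), E2F5 to C3orf18 (0.9925) and SIAH2 (0.9825), and RBL2 to BTN3A2 (0.9835) and ASPH (0.9666). A correlation does not compare the size of changes. At 48 h PPM1F changed by -0.47 and ZC3H12C by -1.22, against -1.17 for E2F3. BTN3A2 and ASPH changed by -0.7 and -0.88, against -0.19 for RBL2. For E2F4, which hardly varied, they were ZNF580 at 0.7637 and JMJD8 at 0.7561. Genes as flat as E2F4 were not among the candidates, so the search could not find a flat match.

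Between treatment times the largest step of E2F2, E2F8 and RBL1 was that from 24 h to 48 h. From 4 h to 24 h 6 members were called, all higher, against 41.5% of all genes (21.2% higher and 20.3% lower), and E2F2 and E2F8 rose 10.5-fold and 9.01-fold. From 24 h to 48 h 7 were called, 1 higher and 6 lower, against 66.8% of all genes (31.5% higher and 35.3% lower). From 4 h to 48 h 8 were called, 4 higher and 4 lower, against 69.5% of all genes (34.5% higher and 35% lower), with E2F1 1.85-fold higher and E2F2 3.79-fold lower. E2F4 and RBL2 passed the test in none of these 3 comparisons with TMM. With library totals RBL2 fell by 0.29 from 24 h to 48 h (adjusted p = 0.00168) and by 0.29 from 4 h to 48 h (adjusted p = 0.00154), and with a filter of at least 5 CPM in 2 libraries it also passed both (-0.15 and -0.17). Over all settings 6 to 9 members were called from 24 h to 48 h and 8 to 9 from 4 h to 48 h. The libraries did not overlap for 7, 8 and 9 members from 4 h to 24 h, 24 h to 48 h and 4 h to 48 h, beside 75.8, 82.3 and 82.9% of all genes. These comparisons share libraries with those against control and are no independent evidence.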

How the data were processed

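Sequencing counts of 8 U87MG libraries, 2 in each of 4 groups, were used. The authors deposited raw whole-number counts per gene symbol, 1 file of 23368 rows per library. Per the submitters' processing notes, Bowtie and the builds hg19 and GRCh37 were used; its version is not given in the sources used here, nor are annotation, counting program and strand setting, so overlapping or antisense genes may share reads. No row lacked a gene name, and 28 names turned into dates held 0.191 to 0.224% of counts.

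In R 4.3.3, edgeR 4.0.16 filtered genes with filterByExpr (14448 kept), scaled by TMM (factors 0.8697 to 1.076) and fitted all 8 libraries with 1 coefficient per group (4 residual degrees of freedom, common dispersion 0.00512). SEs are the absolute log2 change over the square root of F. Lengths came from GENCODE annotation of GRCh38, promoters from RefSeq by symbol. On simulated counts the fit was tested. Named genes are the members, E2F6, TFDP1, TFDP2, up to 3 called genes of smallest p per list and time, and the 2 nearest genes per member; values of these at other times and further list genes were added. Members and lists were chosen with earlier results of these data known. The labels number the replicates but do not say whether equal numbers pair libraries across groups. Correlations of the replicate differences between groups were -0.00488 to 0.135, which cannot settle this. Alternatives were other scalings and filters, a replicate block, DESeq2 1.42.0, voom from limma 3.58.1, fits of fewer groups and each library left out. List counts under other scalings were added after the data had been seen.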

Additional observations from a re-analysis of the deposited data

Results flagged for a closer look

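Members called in opposite directions against control at 2 times, with the difference between those times itself past the edgeR test, were set apart. Between 4 h and 24 h, where each had been lower and then higher than control, the difference was 1.37 for E2F1 (adjusted p = 2.01e-07), 3.39 for E2F2 (adjusted p = 4.15e-07), 3.17 for E2F8 (adjusted p = 1.63e-07) and 1.29 for RBL1 (adjusted p = 6.55e-07) on the log2 scale. Between 24 h and 48 h, where 3 of them went from higher to lower than control, it was -5.31 for E2F2 (adjusted p = 2.6e-08), -4.13 for E2F8 (adjusted p = 1.49e-08) and -2.27 for RBL1 (adjusted p = 4.84e-09). E2F1 was lower than control at 4 h and higher at 48 h, a difference of 0.89 (adjusted p = 1.23e-06). Both libraries of each group stood on the same side in all 8 of these differences. Libraries also did not overlap for 75.8% of all genes from 4 h to 24 h. The share was 82.3% from 24 h to 48 h and 82.9% from 4 h to 48 h. As the 8 were picked by the same tests, neither their p-values nor this separation adds evidence.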

How the results depend on the processing

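Of 990 values of the members under other settings, 949 kept direction and call, 8 lost the call, 7 gained it and 26 changed sign, and none that was called in the fit reported changed sign. The numbers of members called over all settings against control were 4 to 4 (4 h), 6 to 7 (24 h) and 8 to 9 (48 h), and those of the E2F targets 28 to 38, 32 to 39 and 30 to 38. With a prior count of 2 the 48 h difference of the E2F2 to E2F4 ratio was -3.61. Where a sign changed, leaving out 1 library gave these ranges: at 4 h E2F5 -0.19 (without 4 h replicate 1) to 0.11 (without 4 h replicate 2), and RB1 up to 0.00 (without 4 h replicate 2); at 48 h E2F4 -0.07 to 0.10 (without 48 h replicate 1 and 2). From 4 h to 24 h they were E2F4 -0.04 to 0.07 and E2F5 -0.23 to 0.08 (without 4 h replicate 1 or 2), and RBL2 up to 0.02 (without 4 h replicate 1). From 24 h to 48 h they were E2F4 -0.03 to 0.15 (without 48 h replicate 1 and 2) and E2F7 -0.08 to 0.02 (without 24 h replicate 1 and 2), and from 4 h to 48 h E2F4 -0.01 to 0.16 (without 48 h replicate 1 and 2; the last passed, adjusted p = 0.0347). Scaling by library totals gave E2F4 -0.27 at 48 h, -0.16 from 24 h and -0.14 from 4 h to 48 h, at least 5 CPM gave it -0.07, -0.02 and -0.02, and only these groups gave -0.01 at 48 h. From 4 h to 24 h E2F4 was -0.01 with DESeq2 size factors, with DESeq2 and without the 48 h libraries and -0.00 with at least 5 CPM, and RBL2 was 0.02 with no filter. E2F7 from 24 h to 48 h was 0.01 with DESeq2 size factors and with DESeq2. For these the cause was not tested. A fit without 1 library held 1 library in that group, so its p-values take in no spread within it. The replicate block left each count of members as it was (4, 6 and 9 against control) and changed no call of a member. Leaving out a library put the count of all genes called at 2227 to 5783 for 4 h against 4127, at 1349 to 4954 for 24 h against 3222 and at 3823 to 7338 from 4 h to 24 h against 5997, lowest without a library of the groups compared and highest without 48 h replicate 2 (and nearly as high without 48 h replicate 1).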

Other observations

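From 24 h to 48 h 37 of the 43 E2F targets were lower and 3 higher, with a median change of -0.87, while of the 23 G2/M genes 14 were lower and 5 higher, with a median of -0.39, beside -0.07 for all genes, of which 31.5% were higher and 35.3% lower. From 4 h to 48 h all 23 G2/M genes were higher, with a median of 1.61, and of the E2F targets 22 were higher and 10 lower, with a median of 0.20, beside 34.5% and 35% of all genes higher and lower. In the list of cyclins and kinases around the RB proteins, CDC25A and MNAT1 included, 13 genes were measured. Of these 10 were lower and 3 higher at 48 h than at 24 h, where 66.8% of all genes were called. Of the 4 CDK inhibitors 2 were higher and none lower. These comparisons share libraries with those against control.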
